A study of Homo sapiens with 10 samples.

Results

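The S100 genes of the long arm of chromosome 1 lie side by side in 1 cluster. The region examined was chr1:153300000-153620000 (hg19), which holds S100A9, S100A8, S100A7, S100A6, S100A4 and S100A2, and its members are all peaks whose summit falls inside it. It held 395 of the 879550 peaks of 10 lists, and summits within 150 bp of a neighbour were joined into 93 of 269404 sites. The peaks come from ChIP-seq of 3 AP-1 subunits (FOS, JUN, JUNB), NFKB1 and STAT3 in MCF10A-ER-Src cells, human mammary epithelial cells in which the v-Src kinase is joined to the part of the estrogen receptor that binds hormone. Transformed cells had 1 µM 4-hydroxy-tamoxifen for 12 h, which switches the kinase on, and non-transformed cells were the ethanol controls. The library names written in the lists give 36 h for the ethanol cells, so the times of the states differ. There was 1 library per protein and state in 1 cell line, so no difference between states has a replicate check and none was tested. Peak lists carry no expression values, so the cell label could not be checked against marker genes.

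S100 proteins are small calcium-binding proteins that act as dimers. S100A8 and S100A9 pair to form calprotectin, an inflammatory protein complex of neutrophils and irritated epithelia, and S100A7 is psoriasin, an antimicrobial protein of keratinizing epithelium. S100A2, S100A4 and S100A6 act mostly inside cells, S100A2 chiefly in basal epithelial cells, and S100A4 is known for its link to cell motility and metastasis. AP-1 is a dimer of a FOS and a JUN family protein, NFKB1 is the precursor of the small DNA-binding subunit of NF-kB, and STAT3 is activated by IL-6 family cytokines and by tyrosine kinases such as Src. The study asked where these inflammatory factors bind before and after Src-driven transformation.

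Binding was placed against 3 positions given with the region, 153330330 for S100A9, 153430000 for S100A7, and 153535000. The last was given after the names S100A6, S100A4 and S100A2. It was read as a single position for all of them, which is uncertain, and is called the S100A2 position here. Each site was assigned to the nearest of them, giving an S100A9/S100A8 stretch of 31 sites, an S100A7 stretch of 15 sites and an S100A6/S100A4/S100A2 stretch of 47 sites. A site is called by its distance in kb from its position, negative toward lower coordinates. The positions were given as approximate, so these distances are not distances from a mapped gene start. In RefSeq (GRCh38.p14) the genes follow each other as S100A9, S100A12, S100A8, S100A7A, S100A7, S100A6, S100A5, S100A4, S100A3 and S100A2. After S100A2 come S100A16, S100A14, S100A13 and S100A1. Whether sites above the S100A2 position lie at these genes was not determined. No position was given for S100A8, and none of their own for S100A6 and S100A4. S100A5 and S100A3 lie among the genes that share the S100A2 position. A site far from that position can therefore lie near S100A6 or S100A4. No hg19 gene annotation was used here, so exons, introns and UTRs are not assigned.

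The promoters show what the sequence offers next to the binding. RefSeq sequences (GRCh38.p14) of the 250 bases before the start were at hand for 6 of the 6 genes, in 9 entries because S100A8 and S100A2 have several starts. S100A9 is shown because every list had a summit at its position, and S100A2 because it was the member with an AP-1 motif. S100A7 is shown because no peak lay at the position given for it. That position is not a mapped gene start, so binding at the printed S100A7 bases was not determined. Capitals mark a motif match.
S100A9: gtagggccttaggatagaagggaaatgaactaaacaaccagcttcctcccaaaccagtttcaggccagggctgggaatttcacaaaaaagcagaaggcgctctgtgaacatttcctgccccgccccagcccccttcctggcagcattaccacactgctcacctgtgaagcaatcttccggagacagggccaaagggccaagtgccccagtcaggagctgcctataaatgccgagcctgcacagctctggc
S100A2: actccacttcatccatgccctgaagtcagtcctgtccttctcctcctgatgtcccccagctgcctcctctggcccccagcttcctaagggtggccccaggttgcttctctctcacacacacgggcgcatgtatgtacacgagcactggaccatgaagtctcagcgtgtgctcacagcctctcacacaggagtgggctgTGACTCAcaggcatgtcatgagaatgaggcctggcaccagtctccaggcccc
S100A7: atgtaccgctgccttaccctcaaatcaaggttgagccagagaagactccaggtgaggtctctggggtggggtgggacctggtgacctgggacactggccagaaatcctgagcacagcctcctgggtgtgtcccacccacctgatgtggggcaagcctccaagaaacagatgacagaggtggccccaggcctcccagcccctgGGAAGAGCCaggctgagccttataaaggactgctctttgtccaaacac
The letters searched on both strands were TGANTCA for AP-1, TTCNNNGAA for STAT and the loose GGNNNTTCC for NF-kB. The AP-1 letters were in 1 of the 6 genes, 52 bases before an S100A2 start (TGACTCA), against 6.57% of 35116 promoters of this length. The STAT letters were in none of the 6 genes, against 6.57% of promoters. The NF-kB letters were in S100A6 and S100A7, against 17.1% of promoters. These matches describe sequence alone, and the absence of a match says only that these letters were not in that window.

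The region was densely bound in every list. FOS had 43 peaks in non-transformed and 59 in transformed cells, JUN 36 and 53, JUNB 32 and 41, NFKB1 11 and 38, and STAT3 35 and 47. When the genome was cut into windows of the same 320 kb length, the median of the 8747 windows with a peak in any list was 1 to 18 peaks per list. Windows with at least as many peaks as the S100 region made up 0.0343% for STAT3 in either state and at most 0.469%, for NFKB1 in non-transformed cells. The nearest summit below the region was 38.7 kb away, whereas the nearest above it was 82 bp past the bound and the last site inside was 650 bp before it, so the upper bound cuts through bound sequence.

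**Figure D1:**
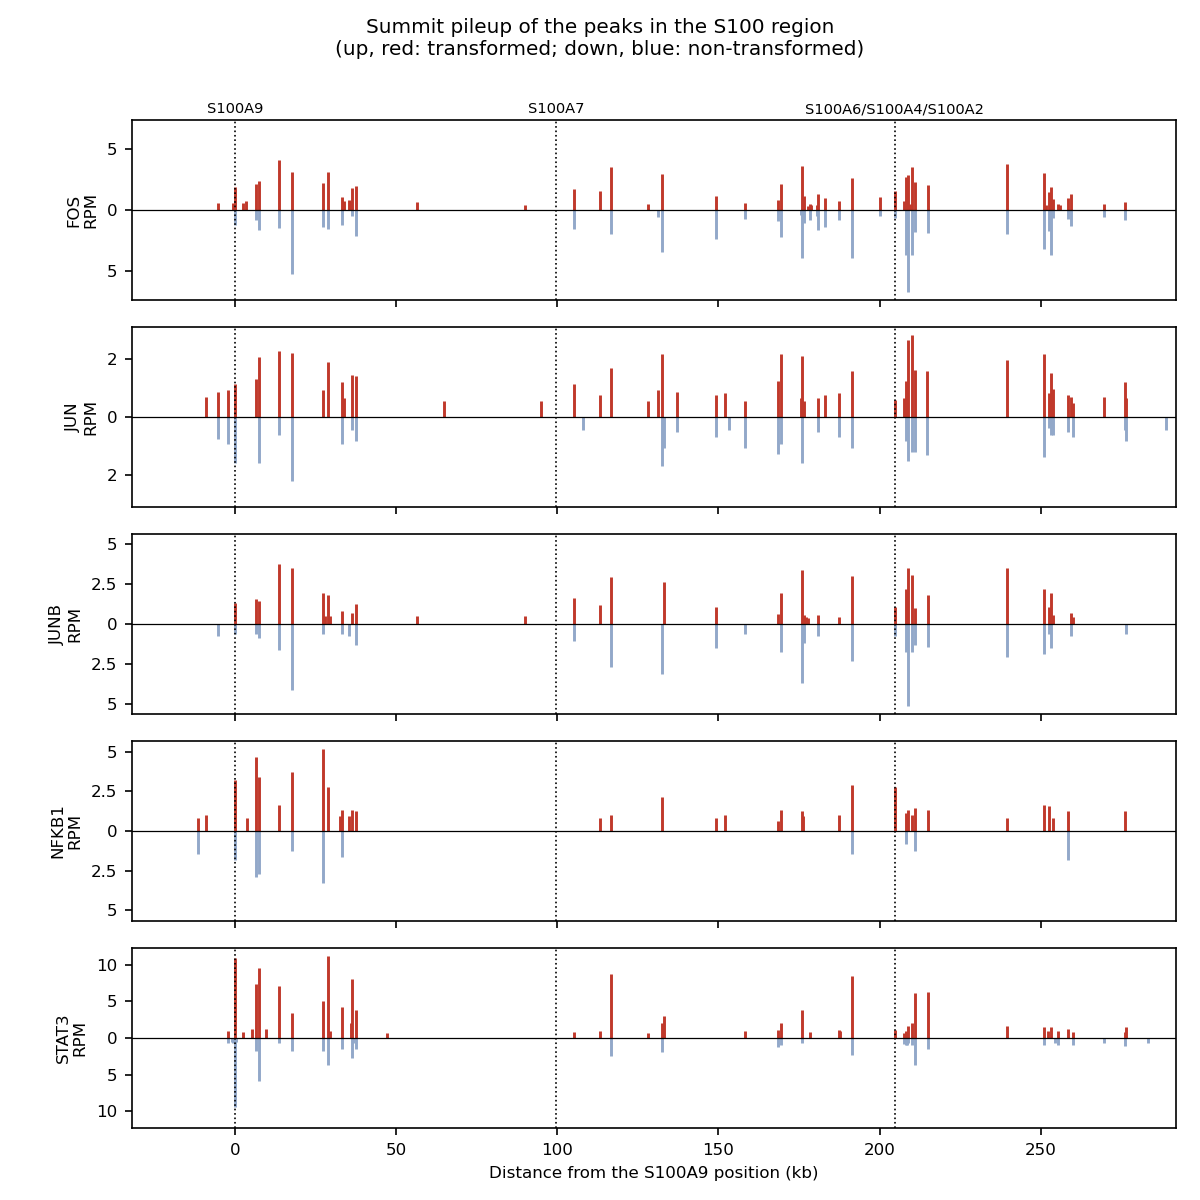
Summit pileup in RPM (vertical axis) of each peak against its distance in kb from the S100A9 position, with 1 panel per protein, transformed cells upward in red and non-transformed cells downward in blue. Dotted lines mark the 3 gene positions. In either state the highest STAT3 line and the highest NFKB1 line lie at the S100A9 position or within 40 kb above it, and the S100A7 stretch holds the fewest peaks.

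Signal is given as the pileup, that is, how many extended reads covered the summit, and as RPM, the pileup per 1000000 filtered reads (4837474 to 22082403 reads per library). Ratios are of RPM, transformed over non-transformed, with exact 95% intervals that cover counting error only. Because the summit is the highest point of a peak, these intervals are narrow for what they describe. RPM values were compared within an antibody. Between antibodies, STAT3 RPM was set against FOS RPM at shared sites, and the result was read beside that over all shared sites. An equal RPM of different antibodies does not mean equal binding.

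At the S100A9 position, every list had a peak. The summits lay between -136 and -99 bp from the S100A9 position, at chr1:153330194-153330231. Where that position is taken as the gene start, they fall within the 250 promoter bases printed above. The STAT3 pileup was 103 reads (9.42 RPM) in non-transformed and 99 reads (11 RPM) in transformed cells, a ratio of 1.17 (0.88 to 1.56). This site was the strongest STAT3 peak of the region in non-transformed cells, in the top 0.21% of that list, and the next strongest in transformed cells, in the top 0.42%. STAT3 signal here was therefore high in either state, and its interval included 1.

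The other proteins also had peaks in both states at the S100A9 position. FOS had 23 and 41 reads, a ratio of 1.5 (0.881 to 2.62), and JUN had 25 and 21 reads, a ratio of 0.722 (0.384 to 1.34). JUNB had 6 and 21 reads, a ratio of 2.04 (0.796 to 6.18). NFKB1 had 9 and 31 reads, a ratio of 1.72 (0.8 to 4.11). None of these 4 intervals excluded 1.

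Above the S100A9 position, several sites had higher signal of more than 1 protein in transformed cells. At 13.7 kb (chr1:153343994-153344060), STAT3 had 8 and 64 reads, a ratio of 9.75 (4.66 to 23.5) and the largest STAT3 ratio of the region. FOS had 27 and 90 reads, a ratio of 2.81 (1.81 to 4.5). JUN had 10 and 42 reads, a ratio of 3.61 (1.78 to 8.06), the largest for JUN. JUNB had 15 and 59 reads, a ratio of 2.29 (1.28 to 4.35), and NFKB1 had no peak in non-transformed cells and 16 reads in transformed cells. At this site the signal of FOS, JUN, JUNB and STAT3 was higher in the transformed libraries, and NFKB1 had no measured ratio. The site was the strongest FOS and JUNB site of the region in transformed cells.

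A pair of neighbouring sites, at 27.3 kb and 28.8 kb, behaved alike for STAT3. At 28.8 kb (chr1:153359082-153359154), STAT3 had 40 and 100 reads, a ratio of 3.05 (2.09 to 4.51), and the transformed value, 11.2 RPM, was the highest of that STAT3 list in the region. FOS had 29 and 69 reads there, a ratio of 2.01 (1.28 to 3.21). JUN, JUNB and NFKB1 had peaks in transformed cells alone, with 35, 29 and 27 reads. FOS and STAT3 were thus the proteins called there in non-transformed cells, against all 5 in transformed cells. The non-transformed NFKB1 library was the shallower of its pair, and 82.4% of all NFKB1 sites had a peak in transformed cells alone. The NFKB1 peak was its strongest in the region among those present in 1 state. At 27.3 kb (chr1:153357574-153357642), NFKB1 had its strongest peak of the region in either state, with 16 and 50 reads and a ratio of 1.56 (0.875 to 2.94). STAT3 had 20 and 45 reads at 27.3 kb, a ratio of 2.74 (1.59 to 4.9), and JUNB had 6 and 31 reads, a ratio of 3.01 (1.24 to 8.83), the largest for JUNB.

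At 36.3 kb (chr1:153366621-153366665), FOS had 9 and 39 reads, a ratio of 3.65 (1.74 to 8.58) and the largest FOS ratio of the region. JUN had 7 and 27 reads, a ratio of 3.31 (1.41 to 9.01), STAT3 had 30 and 72 reads, a ratio of 2.93 (1.89 to 4.64), and JUNB and NFKB1 had peaks of 11 and 13 reads in transformed cells alone. At 33.3 kb (chr1:153363605-153363669), where all lists had a peak, STAT3 had 17 and 38 reads, a ratio of 2.72 (1.5 to 5.15), and the intervals of the other 4 proteins included 1. At 7.5 kb (chr1:153337823-153337877) all lists again had a peak, and STAT3 had 64 and 86 reads, a ratio of 1.64 (1.17 to 2.3). These 3 sites shared higher STAT3 signal in the transformed library, with differing AP-1 signal. The ratio at 7.5 kb was below the median of 1.71 over all sites of the genome with STAT3 peaks in both states.

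The site at 17.8 kb (chr1:153348128-153348182) went the other way for FOS. FOS had 97 and 68 reads, a ratio of 0.591 (0.427 to 0.814), whereas NFKB1 had 6 and 36 reads, a ratio of 3.0 (1.25 to 8.71), the largest for NFKB1. STAT3 had 19 and 31 reads, a ratio of 1.99 (1.09 to 3.73). JUN had 35 and 41 reads and JUNB 38 and 55, and their intervals included 1. In non-transformed cells this was the strongest JUN site of the region.

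**Figure D2:**
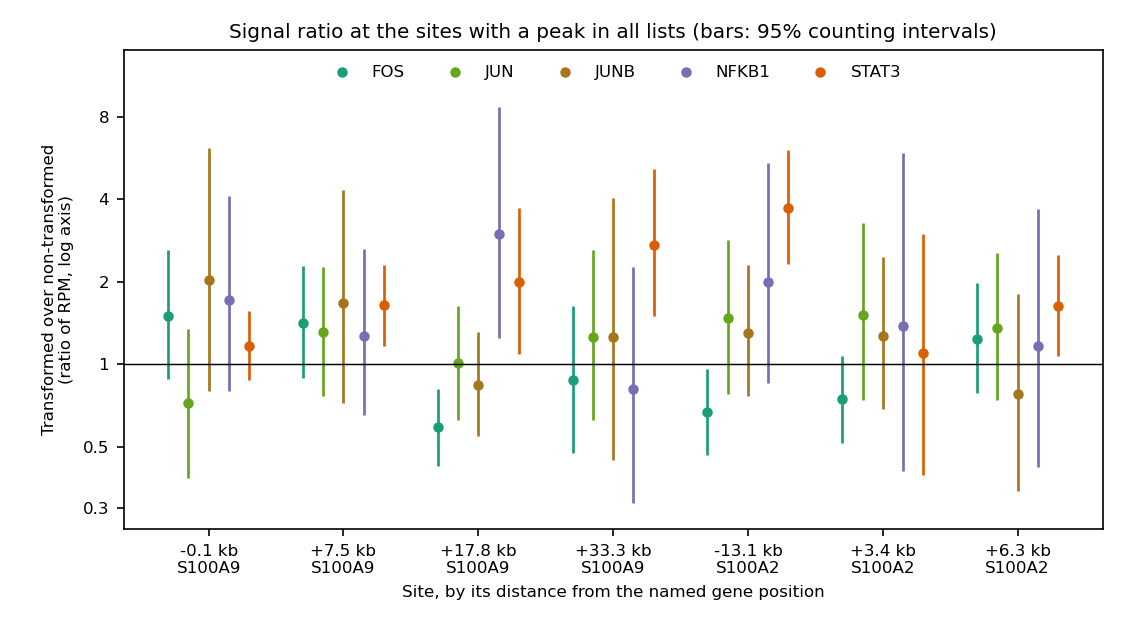
Ratio of RPM, transformed over non-transformed (log axis), at the 7 sites with a peak in all 10 lists, with each protein as a point and its exact 95% counting interval as a bar. The STAT3 interval lies above 1 at 5 of the 7 sites, and the FOS interval lies below 1 at 17.8 kb from S100A9 and -13.1 kb from S100A2. Over all sites of the genome with peaks in both states, the median ratio was 1.71 for STAT3 and 0.949 for FOS.

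Over the whole S100A9/S100A8 stretch, 11 sites had STAT3 peaks in both states, and all 11 ratios were above 1, with a median of 2.72. The median ratio over all 29491 such sites of the genome was 1.71, so most of those ratios were above 1 as well. Over the 27 such sites of the S100 region the median was 2.11. FOS ratios were above 1 at 7 of 10 kept sites of the stretch, with a median of 1.55, against 0.949 over all sites. JUNB had a median of 1.86 over 8 sites, against 0.964 over all sites. The stretch held 7 NFKB1 sites in non-transformed and 15 in transformed cells, and 15 and 17 STAT3 sites.

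STAT3 stood high relative to FOS in this stretch. In transformed cells, STAT3 RPM exceeded FOS RPM at 11 of 11 sites with both peaks, with ratios of 1.12 to 5.95 and a median of 3.39. The same was seen at 11 of 20 sites of the S100A6/S100A4/S100A2 stretch, with a median of 1.12, and at 2 of 5 sites of the S100A7 stretch. Over all shared sites the share was 58.1% and the median 1.18. In non-transformed cells the counts were 7 of 10, 4 of 12 and 1 of 2 sites, against 37.3% of all shared sites. The medians in non-transformed cells were 1.67 in the S100A9/S100A8 stretch, 0.901 in the S100A7 stretch and 0.52 in the S100A6/S100A4/S100A2 stretch, against 0.721 over all shared sites. The S100A7 median in transformed cells was 0.682, so the S100A9/S100A8 median was the highest of the 3 in either state and the order of the other two changed. These stretches overlap in their ratios, and sites within a stretch share their libraries.

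**Figure D3:**
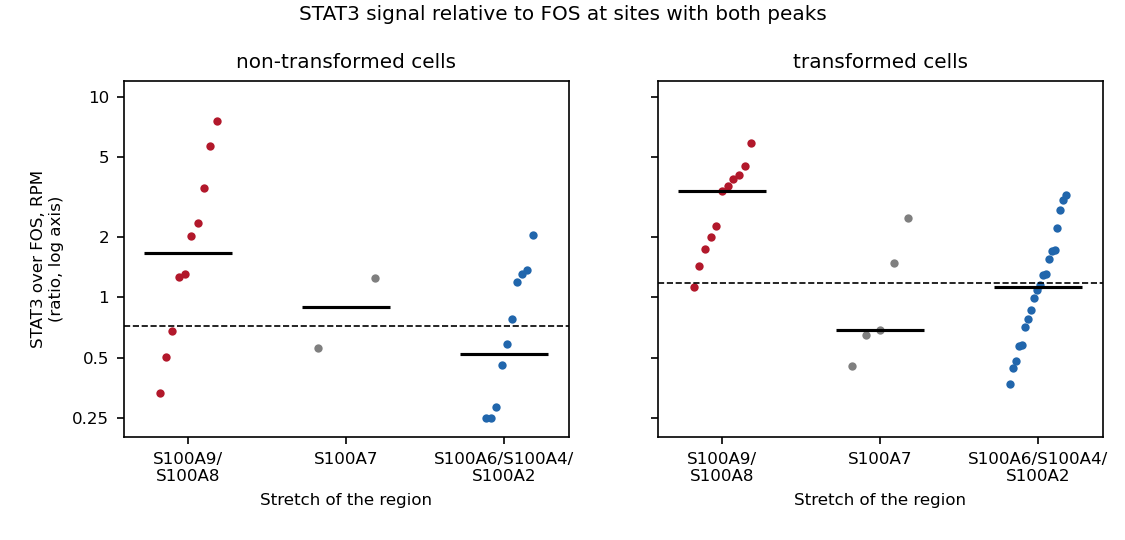
STAT3 over FOS RPM (ratio, log axis) at each site with a peak of both proteins, by stretch, in non-transformed (left) and transformed cells (right). Bars are medians of the stretch and the dashed line is the median over all shared sites. In transformed cells, 10 of the 11 S100A9/S100A8 points lie above the dashed line.

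Around S100A7, binding was sparser than in the other stretches of the region, and the density was not compared with the genome. The stretch spans 102.3 kb and held 1.47 sites per 10 kb, against 3.87 in the S100A9/S100A8 stretch and 3.42 in the S100A6/S100A4/S100A2 stretch. Nothing was called in any list over the 25.3 kb between 153395084 and 153420383. The site nearest the S100A7 position lay at -4.9 kb and consisted of 1 JUN peak of 10 reads in transformed cells. A site with a peak in 6 lists lay at 5.5 kb (chr1:153435429-153435489). FOS had 29 and 38 reads there, a ratio of 1.1 (0.664 to 1.86), and JUNB 10 and 26, a ratio of 1.52 (0.707 to 3.52). JUN and STAT3 had peaks at 5.5 kb in transformed cells alone, with 21 and 7 reads. NFKB1 had no peak in the stretch in non-transformed cells and 5 in transformed cells, and STAT3 had 2 and 6. No site of the stretch was shared by 9 or 10 lists, against 8 in each of the other stretches.

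The S100A7 stretch held 1 site with no called peak in any non-transformed list and a peak in every transformed list. At 13.4 kb (chr1:153443368-153443403), FOS had 34 reads, JUN 14, JUNB 19, NFKB1 8 and STAT3 9 in transformed cells. It was the strongest FOS site of the region present in 1 state alone. At 17.0 kb (chr1:153446964-153447000), STAT3 had 27 and 79 reads, a ratio of 3.57 (2.28 to 5.74), and FOS 37 and 78, a ratio of 1.78 (1.19 to 2.7). JUN and NFKB1 appeared there in transformed cells alone, with 31 and 10 reads, whereas JUNB had 25 and 46 reads, with an interval that included 1. At 49.4 kb (chr1:153479388-153479467), FOS had 44 and 25 reads, a ratio of 0.479 (0.281 to 0.8).

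At 32.9 kb (chr1:153462899-153462964), JUNB had 29 reads in non-transformed cells and no summit in transformed cells. The site was still covered in transformed cells, by a JUNB peak that runs from 153462775 to 153463497 with its summit of 41 reads at 153463318, so the call of a lost peak there rests on where the summit was placed. At the neighbouring site at 33.3 kb (chr1:153463307-153463387), STAT3 had 27 reads in transformed cells alone, its strongest peak of 1 state. The STAT3 peak of non-transformed cells ended 16 bp before that site.

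The S100A6/S100A4/S100A2 stretch held the strongest FOS peak of the region. At 4.2 kb (chr1:153539119-153539210), FOS had 125 and 64 reads, a ratio of 0.432 (0.314 to 0.588) and the smallest FOS ratio of the region. The non-transformed peak, the strongest, was in the top 0.4% of its list. JUN had 24 and 49 reads at the same site, a ratio of 1.75 (1.06 to 2.99), and STAT3 7 and 15 reads, a ratio of 2.61 (1.0 to 7.57). JUNB had 47 and 55 reads, a ratio of 0.682 (0.454 to 1.03), and NFKB1 had 13 reads in transformed cells alone. FOS and JUN, which can form 1 AP-1 dimer, thus had intervals on opposite sides of 1 at this site.

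At the S100A2 position (chr1:153535006-153535078), FOS had 12 and 35 reads, a ratio of 2.46 (1.25 to 5.2), and JUNB 7 and 17 reads, with an interval that included 1. NFKB1, JUN and STAT3 had peaks in transformed cells alone, with 27, 11 and 10 reads. At -13.1 kb (chr1:153521847-153521967) all 10 lists had a peak, and STAT3 had 25 and 76 reads, a ratio of 3.71 (2.33 to 6.08). FOS had 73 and 58 reads there, a ratio of 0.67 (0.466 to 0.959), and NFKB1 had 7 and 28 reads, a ratio of 2.0 (0.854 to 5.42). At -28.6 kb (chr1:153506344-153506404), STAT3 had 8 and 35 reads, a ratio of 5.33 (2.43 to 13.3), beside FOS with 73 and 79 reads, a ratio of 0.912 (0.655 to 1.27). At -13.1 kb and -28.6 kb, STAT3 signal was thus higher in the transformed library while FOS was lower or level. This was not so at every site where FOS was level or lower.

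The last sites shared by all lists were at 3.4 kb (chr1:153538293-153538520) and 6.3 kb (chr1:153541213-153541352). At 3.4 kb, STAT3 had 10 and 9 reads, and FOS had 68 and 60 reads, a ratio of 0.744 (0.517 to 1.07). At 6.3 kb, STAT3 had 41 and 55 reads, a ratio of 1.63 (1.07 to 2.51), and FOS had 34 and 50 reads, a ratio of 1.24 (0.786 to 1.98). At 34.8 kb (chr1:153569756-153569809), FOS had 36 and 83 reads, a ratio of 1.94 (1.3 to 2.96), and JUN had its strongest peak of 1 state, with 36 reads in transformed cells. Over the 27 kept FOS sites of this stretch the median ratio was 0.928, against 0.949 over all sites, and the ratio was above 1 at 8. STAT3 had a median of 1.61 over 14 kept sites, against 1.71 over all sites, and JUN 1.48 over 20, against 1.29.

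The smallest ratios of the other proteins were at sites with 7 to 17 reads. STAT3 was lowest at 71.4 kb from S100A2 (chr1:153606390-153606480), with 12 and 7 reads and a ratio of 0.711 (0.237 to 1.96). JUN was lowest at -46.5 kb from S100A2, with 17 and 10 reads and a ratio of 0.505 (0.207 to 1.17). JUNB was lowest at -28.0 kb from S100A2, with 11 and 9 reads and a ratio of 0.477 (0.175 to 1.27), and NFKB1 at -11.5 kb from S100A9, with 7 and 8 reads and a ratio of 0.571 (0.181 to 1.85). All 4 intervals included 1.

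**Figure D4:**
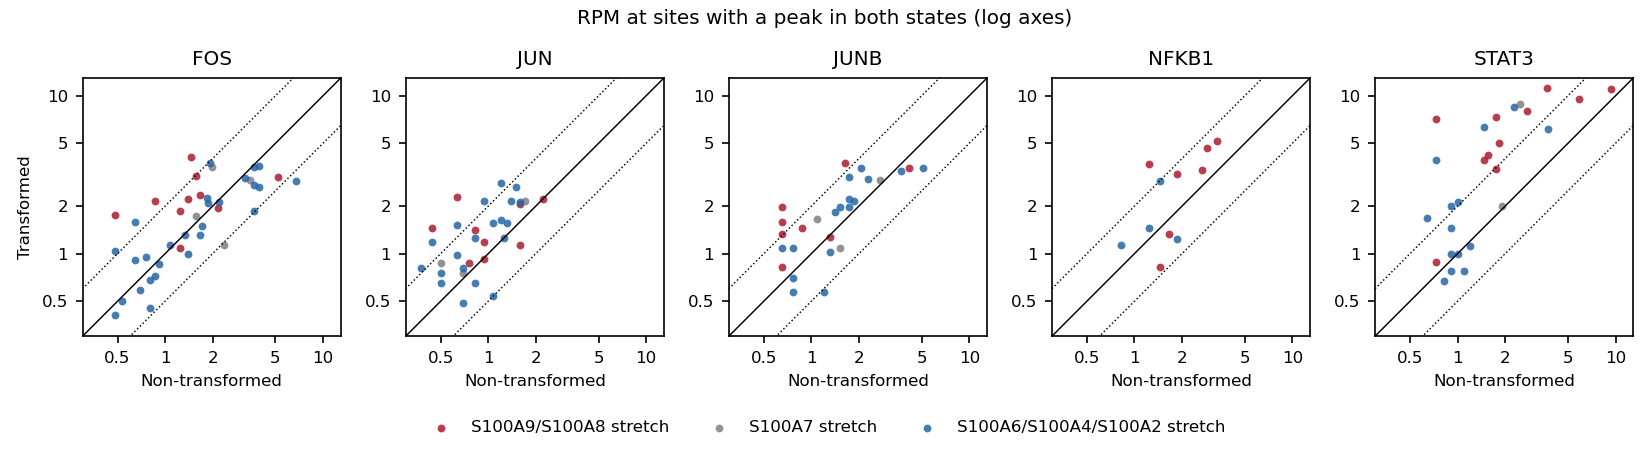
Reads RPM in transformed (vertical) against non-transformed cells (horizontal), log axes, for every site of the region with a peak in both states, with 1 panel per protein and points coloured by stretch. The solid line is equality and the dotted lines are ratios of 2 and 0.5. STAT3 points of the S100A9/S100A8 stretch all lie above equality, and FOS points scatter on both sides of it. The median STAT3 ratio over all such sites of the genome was also above equality, at 1.71.

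Counted over the region, the changes in peak number and signal were compared with all sites of the same protein. A site was called gained or lost where the protein had a peak in transformed or non-transformed cells alone, and among kept sites higher or lower at a ratio of at least 2 or at most 0.5. For STAT3, 20 of 55 sites (36.4%, Wilson 95% interval 24.9 to 49.6) were gained, against 54.1% of all STAT3 sites, and 8 (14.5%) were lost, against 14.1%. Of the 27 kept STAT3 sites, 14 (51.9%, 34.0 to 69.3) were higher, against 39.0%, and 0 were lower, against 1.0%. For STAT3 the gained share of the region was thus below the background with an interval that excluded it, whereas the interval of the higher share included the background. The intervals of these shares take sites as independent, although sites share their libraries. Many shares were compared, so an interval that excludes the background is not a test.

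For NFKB1, 27 of 38 sites (71.1%, 55.2 to 83.0) were gained, against 82.4%, and 0 were lost, against 2.15%. Of 11 kept NFKB1 sites, 2 were higher, against 9.28%, and 0 were lower, against 6.07%. The ratio of NFKB1 site numbers was 3.45 in the region and 5.55 over all sites. The NFKB1 library of non-transformed cells was the shallowest, at 4837474 reads against 9674390 in transformed cells. With peaks of a −log10 q of at least 10, the NFKB1 ratio was 6.0 in the region and 5.49 over all sites, and with peaks of at least 2 RPM it was 3.0 and 1.92. Keeping the top 13252 peaks of each list by significance fixes the ratio over all sites at 1.0, and the region then had 9 NFKB1 sites in transformed and 11 in non-transformed cells, a ratio of 0.818 (0.3 to 2.17).

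For FOS, 18 of 61 sites (29.5%) were gained, against 35.8%, and 2 (3.28%, 0.904 to 11.2) were lost, against 11.7%. Of 41 kept FOS sites, 6 were higher, against 8.55%, and 2 lower, against 6.02%. For JUN, 21 of 57 sites (36.8%) were gained, against 44.2%, and 4 lost, against 12.8%. Of 32 kept JUN sites, 7 were higher, against 14.9%, and 0 lower, against 0.84%. For JUNB, 14 of 46 sites (30.4%) were gained, against 38.0%, and 5 lost, against 16.7%. Of 27 kept JUNB sites, 4 were higher, against 7.77%, and 1 lower, against 7.06%. The FOS loss was the AP-1 share whose interval excluded the background, from below.

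**Figure D5:**
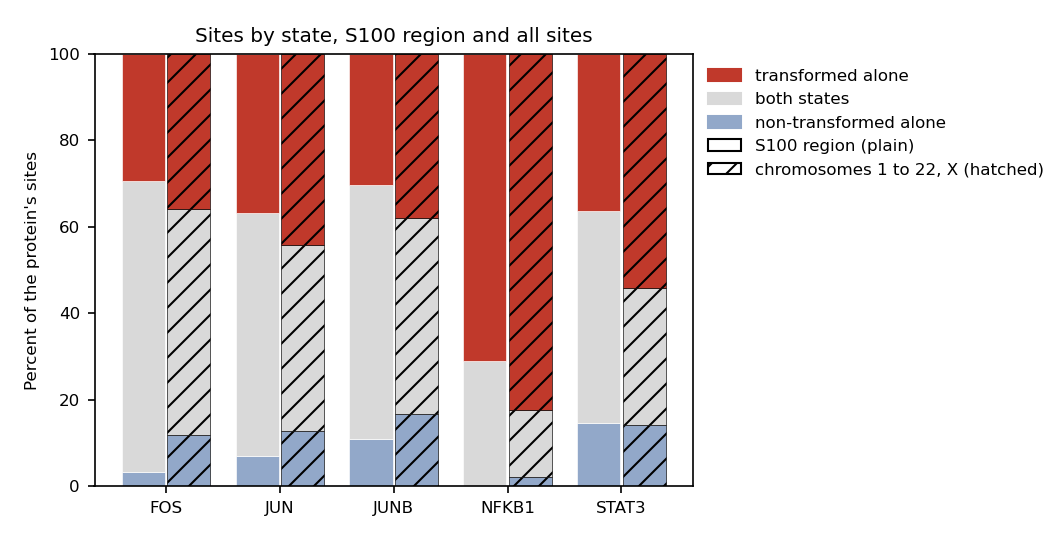
Percent of each protein's sites with a peak in transformed cells alone (red), in both states (grey) and in non-transformed cells alone (blue), for the S100 region (plain bars) and all sites on chromosomes 1 to 22 and X (hatched bars). For each of the 5 proteins the share kept in both states is larger in the region than over all sites.

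Proteins shared sites in the region more often than over all sites. In transformed cells, 24 of 84 occupied sites (28.6%, 20.0 to 39.0) held all 5 proteins, against 15.5% of all occupied sites. In non-transformed cells, the count was 7 of 64 (10.9%, 5.4 to 20.9), against 3.27%. All 10 lists had a peak at 7 of 93 sites (7.53%, 3.69 to 14.7), against 1.89%, and 4 of the 7 were in the S100A9/S100A8 stretch. Sites with 1 protein alone made up 27 of 84 (32.1%) in transformed cells, against 42.7%, and 23 of 64 (35.9%) in non-transformed cells, against 51.4%. The larger share with all 5 proteins held with peaks of a −log10 q of at least 10, at 23.5% in the region and 11.9% over all sites. It was not seen with peaks of at least 2 RPM, where it was 4.0% (1 of 25 sites) and 6.29%, or at equal list length, where it was 4.17% (1 of 24 sites) and 7.2%.

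The pairing of STAT3 and NFKB1 with AP-1 was close to the background. In transformed cells, 41 of 47 STAT3 sites (87.2%, 74.8 to 94.0) had a FOS, JUN or JUNB peak, against 85.3%, and in non-transformed cells 26 of 35 (74.3%), against 77.6%. For NFKB1 it was 34 of 38 sites (89.5%) in transformed cells, against 83.5%, and 10 of 11 in non-transformed cells, against 83.8%. NFKB1 sites that also held STAT3 numbered 28 of 38 (73.7%, 58.0 to 85.0) in transformed cells, against 59.9%, and 9 of 11 in non-transformed cells, against 58.7%. An AP-1 peak was already present in non-transformed cells at 10 of the 20 gained STAT3 sites against 59.9% of all gained STAT3 sites, and at 25 of the 27 kept ones, against 91.1%. For gained NFKB1 sites it was 21 of 27 (77.8%), against 71.0%.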

How the data were processed

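ChIP-seq of 5 proteins in non-transformed and transformed MCF10A-ER-Src cells gave 10 peak lists, 1 per protein and state, grouped by the sample titles. Per the submitters' processing notes, reads were aligned with Bowtie to hg19 and peaks called with MACS2. Per the file headers, the authors ran MACS 2.0.10.20131216 on each library without a control library, so no input signal was subtracted, with 36 bp reads, a q-value cutoff of 0.05, a local background of 1000000 bp and 1 read kept per position. The deposited pileup is a signal not scaled for depth. The columns for significance were deposited as −log10 p-value and −log10 q-value. The deposited fold enrichment compares the pileup with the local background, and its values follow the pileup with a constant added rather than a plain ratio. Other deposited columns give each peak’s start, end, length and summit, counted from 1.

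Peaks on chromosomes 1 to 22 and X were used. Summits at most 150 bp apart were joined into sites, and the most significant peak of a list stood for it. Pileup was scaled to 1000000 filtered reads (RPM). Ratios have exact conditional binomial and shares Wilson 95% intervals, which cover counting error only, with no test of state. Gene order and promoters came from RefSeq (GRCh38.p14), and no coordinates were converted. Within each stretch the text names the 5 sites in most lists (ties by summed signal) and the site nearest the gene position. It also names each protein's largest and smallest ratio and strongest peak of 1 state, 26 sites in all. The members, stretches and rules were chosen with earlier results of these data known. Alternatives were linkage at 50 and 300 bp, −log10 q of at least 10, at least 2 RPM, equal list lengths, fold enrichment in place of pileup and, added after seeing the data, whole peaks. Site joining was tested on simulated data. The computations used Python 3.11.15, numpy 2.4.6, pandas 2.3.3 and scipy 1.17.1.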

Additional observations from a re-analysis of the deposited data

Results flagged for a closer look

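At 3 of the 26 named sites the counting intervals of FOS and of another protein lay on opposite sides of 1, and the difference between proteins was not tested. At 17.8 kb from S100A9, the ratio of transformed over non-transformed RPM was 0.591 for FOS, 3.0 for NFKB1 and 1.99 for STAT3. At -13.1 kb from S100A2, it was 0.67 for FOS and 3.71 for STAT3. At 4.2 kb from S100A2, it was 0.432 for FOS, 1.75 for JUN and 2.61 for STAT3, whose interval starts at 1.0. Outside the named sites, and chosen after its values were seen, the site at 48.6 kb from S100A2 (chr1:153583558-153583586) had a ratio of 0.508 (0.336 to 0.76) for FOS and 2.41 (1.13 to 5.55) for JUN. The median ratio over all kept sites was 0.949 for FOS, 1.29 for JUN, 1.03 for NFKB1 and 1.71 for STAT3, so the direction for FOS, JUN and STAT3 is also that of their libraries as a whole.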

How the results depend on the processing

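Of 47 recomputed summary values, 39 stayed within the counting interval set beside the reported value. The interval set beside a median over the named sites was not an interval of that median. For STAT3 it ran from 1.99 to 2.51 beside a median of 2.67, which was 2.24 with fold enrichment. With peaks of at least 2 RPM, the ratio of site numbers moved to 9.0 for JUN (9 sites in transformed and 1 in non-transformed cells) and 2.86 for STAT3, and the share of sites with all 5 proteins to 4.0%. Lists of equal length fix the ratio of site numbers over all sites at 1.0, and the NFKB1 ratio in the region was then 0.818 (0.3 to 2.17). At that length the share with all 5 proteins moved to 4.17%, and the AP-1 share of STAT3 sites to 46.7%, against 46.6% over all sites. These settings drop weak peaks by construction. With fold enrichment in place of RPM, the median ratio over the named sites moved from 1.27 to 1.63 for JUNB and from 1.38 to 1.97 for NFKB1, for which the cause was not tested. All 79 ratios at named sites stayed within their own intervals, and 6 crossed 1. Counting whole peaks, chosen after seeing the data, left 20 of 20 gained STAT3 sites and 4 of 5 lost JUNB sites as called. No paired analysis was possible because there is 1 library per protein and state. The weakest called NFKB1 pileup in the region was 4 reads before and 6 after transformation.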
